A study of Mus musculus with 8 samples.

Results

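The interleukin-6 receptor and STAT3 axis was taken as 7 genes named by symbol: the ligands Il6 and Osm, the receptor chains Il6ra and Il6st, the kinase Jak2, the transcription factor Stat3 and the inhibitor Socs3. All 7 were found among the 21878 gene symbols of the count table. RNA of whole peripheral blood from female wild-type C57BL/6 mice aged 6 to 8 weeks was sequenced, with 4 libraries from the control group, which had no restraint, and 4 from the stress group, restrained for 6 h. By the methods of the study, neither group had food or water during that time. The question was which genes of blood cells differ after acute restraint. Total counts ran from 31471145 to 39014775 in the control libraries and from 25978683 to 29655725 in the stress libraries. Haemoglobin genes took 51.9% to 63.8% of each control library and 61.2% to 75.5% of each stress library, which left 11409246 to 18771951 counts outside them in controls and 6352711 to 11007593 after stress. Stress 3 had the fewest counts outside the haemoglobin genes. The labels do not say that each library came from a separate mouse, and p-values here measure only the spread between these libraries, which may be technical.

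Interleukin-6 is a cytokine that binds the receptor chain encoded by Il6ra, and the pair then recruits gp130, the signalling chain encoded by Il6st. Oncostatin M and the other cytokines of the family also signal through gp130, which most cells carry, whereas Il6ra is made mainly by hepatocytes and some leukocytes and can be shed as a soluble receptor. Janus kinases bound to gp130 phosphorylate STAT3, which enters the nucleus and switches on target genes, among them Socs3, whose product binds gp130 and the kinase and ends the signal.

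After restraint, Socs3 transcripts rose 1.42-fold and Il6st transcripts fell to 0.724 of the control level, relative to the typical gene of the same libraries. Il6 itself was nearly absent from blood in both groups, and Il6ra differed by less than the spread between libraries. Jak2 was higher in every stress library than in every control library but missed the threshold, and Stat3 and Osm overlapped between the groups. Of the 7 genes, 6 reached 10 counts in 4 or more libraries and entered edgeR's quasi-likelihood fit of 11718 genes, with Benjamini-Hochberg adjustment. At an adjusted p below 0.05, 1 of the 6 was higher (Socs3) and 1 was lower (Il6st), against 10.4% of all tested genes higher and 3.69% lower. By the thresholds of the study, a log2 fold change beyond 1 in either direction with an adjusted p below 0.01, 0 of the 6 were called by edgeR, DESeq2 or limma-voom. Of all genes, edgeR called 1.69% higher and 0.0171% lower, DESeq2 2.83% and 0.102%, and limma-voom 2% and 0.0256%. Before adjustment, 2 of the 6 were higher and 1 was lower at p below 0.05, against 18.2% and 13% of all genes. Every stress library lay above every control library for 1 of the 6 (Jak2) and below for 1 (Il6st), against 11.1% and 9.87% of all genes. The median log2 fold change was 0.18 over the 6 genes and -0.02 over all genes.

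**Figure D1:**
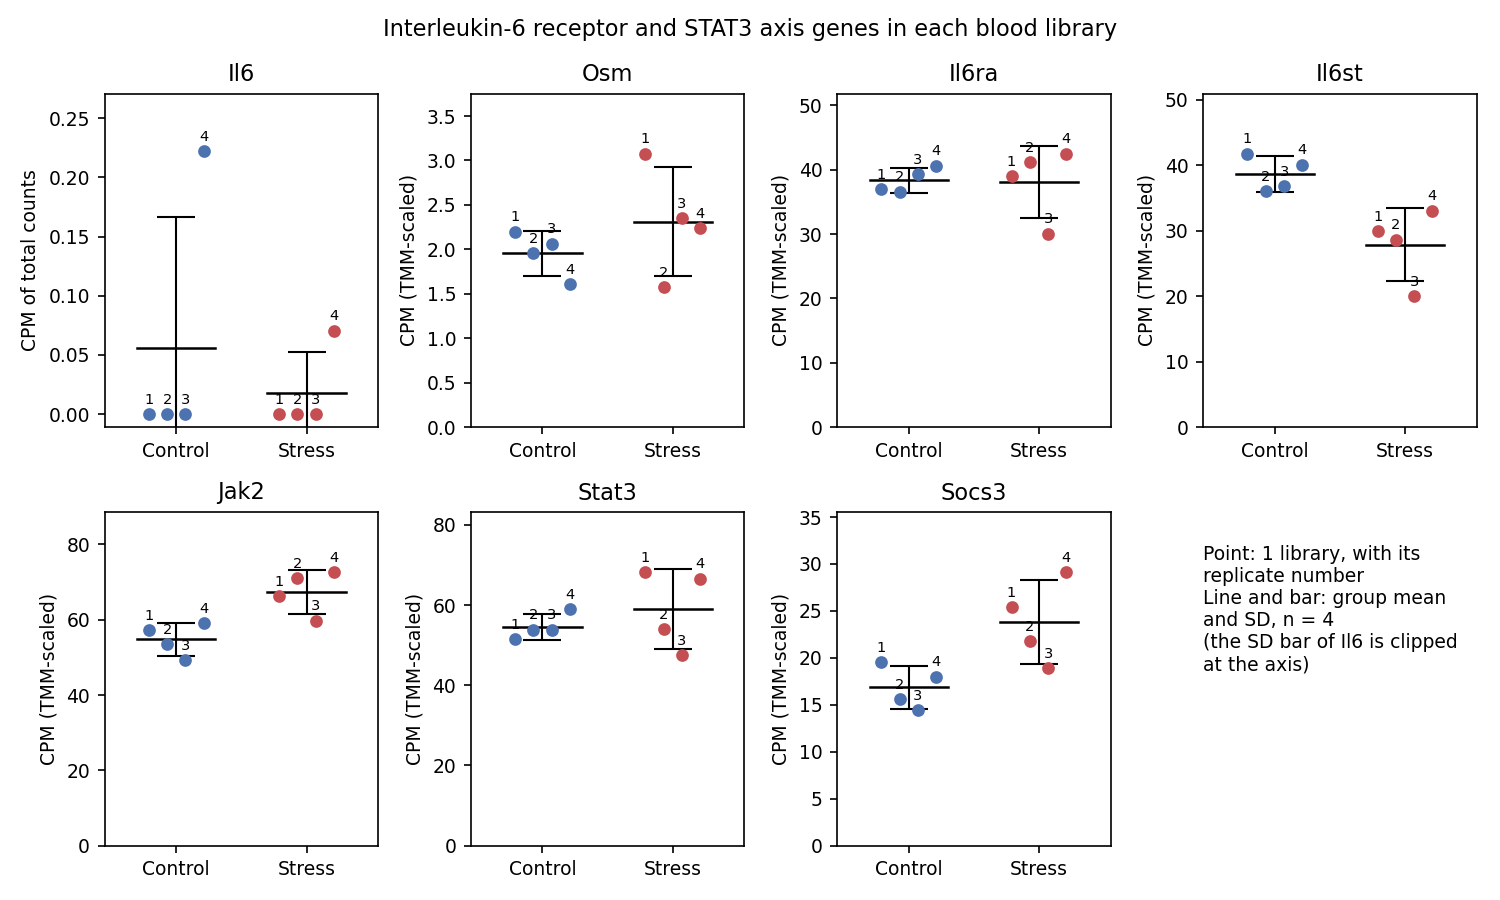
Level of each axis gene in each library, with the replicate number beside each point; the vertical axis is counts per 1000000 counts (CPM), scaled by TMM except for Il6, which is CPM of total counts, and lines and bars are the group mean and SD (n = 4). Il6st is lower in all 4 stress libraries, Jak2 is higher in all 4, and Il6 has counts only in the libraries numbered 4.

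The promoters of Il6st and Socs3, the axis genes that passed the test in opposite directions, are shown with the letters that STAT proteins are known to prefer. The 250 bases before the RefSeq start (build GRCm38.p6) were searched for TTCNNNGAA, which reads the same on both strands. RefSeq promoters were found for 6 of the 7 genes, all but Osm, and 1 of the 6 held a match, Socs3, which is marked in capitals. Over all RefSeq promoters, 7.02% of 32851 windows of the same length held a match, and over those of tested genes 6.19% of 11592. Il6st lies on the plus strand and its window is chr13:112463820-112464069, which ends at the first base before the annotated gene. Socs3 lies on the minus strand and its window is chr11:117969367-117969616, upstream of the protein-coding transcript, where GENCODE also places longer Socs3 transcripts with no coding sequence. The match ran from 154 to 146 bases before the RefSeq start.
Il6st: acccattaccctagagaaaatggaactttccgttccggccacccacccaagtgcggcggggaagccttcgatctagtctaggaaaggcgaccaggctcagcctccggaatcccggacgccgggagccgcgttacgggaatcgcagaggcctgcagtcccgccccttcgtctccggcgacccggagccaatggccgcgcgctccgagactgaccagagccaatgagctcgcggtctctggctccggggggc
Socs3: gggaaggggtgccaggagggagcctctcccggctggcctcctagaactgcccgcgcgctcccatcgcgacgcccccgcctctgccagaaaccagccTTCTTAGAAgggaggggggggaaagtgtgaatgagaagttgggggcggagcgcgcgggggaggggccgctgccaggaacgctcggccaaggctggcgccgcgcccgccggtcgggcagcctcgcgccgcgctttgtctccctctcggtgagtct

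The ligand Il6 (chr5:30013114-30019981, GENCODE M21, GRCm38) had 0 counts in Control 1, Control 2 and Control 3 and 7 counts in Control 4. In the stress group it had 0 counts in Stress 1, Stress 2 and Stress 3 and 2 counts in Stress 4. A count of 0 in a library allowed a level of up to 0.0953 CPM in the control group and up to 0.115 CPM in the stress group (3 counts, counting error only). Pooled over each group the level was 0.0511 CPM in controls and 0.0179 CPM after stress, a ratio of 0.350 with an exact 95% binomial interval from 0.0354 to 1.84. With counts in only 2 of the 8 libraries, no arrangement of these values could give an exact two-sided permutation p below 0.429, so the libraries cannot test this difference. Low counts in this table were even more often than odd, 67.4% to 70.7% of the values from 1 to 20 in each library, and whether both reads of a pair were counted is not given in the sources used here. With each pair counted once the ratio was 0.306, with an interval from 0.00621 to 3.09, and a count of 0 allowed up to 0.191 CPM in the control group and 0.231 CPM in the stress group (6 counts). A difference in Il6 was not detectable at this depth, and transcripts in blood do not measure the circulating protein, which other tissues also release.

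Oncostatin M, a ligand made by activated leukocytes, is encoded by Osm (chr11:4236420-4241026). Its TMM-scaled level was 2.20, 1.95, 2.07 and 1.61 CPM in Control 1 to 4 and 3.08, 1.58, 2.35 and 2.24 CPM in Stress 1 to 4. The stress group held both the highest library and the lowest one, and the groups overlapped. The log2 fold change was 0.24 (95% interval -0.27 to 0.74, edgeR adjusted p = 0.527), from 31 to 143 counts a library.

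Of the other ligand genes of the family, Lif, Il11, Ctf1 and Il27 fell below the count filter. Among the 3 ligands that were tested besides Osm, 1 passed as lower and 0 as higher, where 3.69% and 10.4% of all tested genes did. It was Clcf1, which encodes a cardiotrophin-like cytokine. Clcf1 was at 25.6 ± 0.595 CPM (SD, n = 4) in controls and 19.3 ± 2.87 CPM after stress, with every stress library below every control library (log2 fold change -0.41, adjusted p = 0.0339). Ebi3, the subunit that pairs with Il27, had a log2 fold change of 0.56 and an adjusted p of 0.108.

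Il6ra (chr3:89864059-89913196), the ligand-binding receptor chain, was at 36.9, 36.6, 39.3 and 40.6 CPM in Control 1 to 4 and at 39.0, 41.1, 30.1 and 42.5 CPM in Stress 1 to 4. Stress 3 was the lowest of the 8 libraries, and Stress 4 and Stress 2 were the highest. The group means were 38.4 ± 1.93 and 38.2 ± 5.60 CPM, with a log2 fold change of -0.0040 and a 95% interval from -0.25 to 0.25 (adjusted p = 0.986). Without Stress 3 the log2 fold change was 0.11. An antisense gene, Gm42809, shares 242 exon bases with Il6ra and is not among the symbols counted. Since the strand setting of the counting is not given in the sources used here, reads of the pair cannot be told apart.

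Il6st (chr13:112464070-112510086), which encodes gp130, was at 41.8, 36.0, 36.8 and 40.1 CPM in Control 1 to 4. In Stress 1 to 4 it was at 29.9, 28.6, 20.0 and 33.1 CPM, so that the highest stress library lay under the lowest control library. Stress 3 was again the lowest. The means were 38.7 ± 2.70 and 27.9 ± 5.60 CPM, and the log2 fold change was -0.47 (SE 0.14, 95% interval -0.76 to -0.17, adjusted p = 0.0394). The direction held without any 1 library, with log2 fold changes from -0.56 to -0.32, but the adjusted p rose above 0.05 without Control 1, Control 2, Control 3, Control 4, Stress 1 or Stress 2, to between 0.0645 and 0.102. It was 0.0367 without Stress 3, 0.0203 without Stress 4 and 0.0503 without Control 3 and Stress 3 together. In whole blood, fewer cells of a type that carries a transcript and less of that transcript per cell cannot be told apart.

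The other receptor chains of the family gave few values. Osmr and Cntfr were below the filter, with at most 8 and 4 counts in a library. Il27ra, the interleukin-27 receptor that pairs with gp130, fell from 46.0 ± 1.03 to 35.3 ± 4.59 CPM, with every stress library lower (log2 fold change -0.38, adjusted p = 0.0360). Over the 5 tested receptor chains, Il6ra and Il6st included, 0 passed as higher and 2 as lower in edgeR, against 10.4% and 3.69% of all tested genes. The numbers were the same before adjustment at p below 0.05, against 18.2% and 13%. Their median log2 fold change was -0.28.

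Of 6 tested receptors outside the family that also use STAT3, 0 passed as higher and 1 as lower in edgeR, against the same 10.4% and 3.69%, with 2 each way before adjustment at p below 0.05, against 18.2% and 13%. The gene that passed was Il31ra, an interleukin-31 receptor chain, which fell from 0.559 ± 0.254 to 0.163 ± 0.0572 CPM (log2 fold change -1.70, adjusted p = 0.0449), and was close to the count filter. Csf3r, the receptor of granulocyte colony-stimulating factor, was at 118 ± 36.4 CPM in controls and 209 ± 65.7 CPM after stress, and missed the threshold (log2 fold change 0.82, adjusted p = 0.0544). It passed in 5 of 11 other settings, DESeq2 among them (0.0128), and without Control 4 (0.0318), within a range of 0.0075 to 0.529 over all alternatives. Lepr, Il23r and Il22ra1 were below the filter. Of the 4 tested genes that act on receptor shedding, 1 passed as higher and 0 as lower in edgeR, against 10.4% and 3.69% of all tested genes. It was Adam10, a metalloprotease that can release the Il6ra ectodomain. Its level rose from 48.6 ± 1.59 to 63.8 ± 6.23 CPM (log2 fold change 0.39, adjusted p = 0.0243). Adam17, the protease of induced shedding, had a log2 fold change of -0.06 (95% interval -0.29 to 0.16), and the median over the 4 genes was -0.04. The calls of Clcf1, Il27ra, Il31ra and Adam10 were each lost without some libraries: without any 1 control library or Stress 1 for Clcf1 and Il27ra, and for Il27ra also without Stress 2, without Control 2, Control 3, Control 4, Stress 1, Stress 2 or Stress 3 for Il31ra, and without Control 1, Control 2 or Control 3 for Adam10. Their adjusted p-values then reached at most 0.105, 0.105, 0.110 and 0.0847. Without Control 3 and Stress 3 together, Clcf1 (0.0766), Il27ra (0.0699) and Il31ra (0.132) did not pass either. Il31ra also failed with limma-voom (0.0687), with no count filter (0.0685) and with an offset for exon length (0.0524), and had no adjusted p with DESeq2. With the replicate number as a block, Clcf1 (0.0527), Il27ra (0.0594), Il31ra (0.0728) and Adam10 (0.0599) did not pass.

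Jak2 (chr19:29251828-29313080) encodes a Janus kinase bound by gp130. Its level was 57.2, 53.4, 49.3 and 59.1 CPM in Control 1 to 4 and 66.2, 71.0, 59.7 and 72.6 CPM in Stress 1 to 4. Every stress library was above every control library, although Stress 3 and Control 4 nearly touched. The means were 54.8 ± 4.34 and 67.4 ± 5.79 CPM, with a log2 fold change of 0.30 (95% interval 0.07 to 0.53). The adjusted p was 0.0778, above the threshold. It was 0.0209 without Stress 3 and 0.0270 with DESeq2, within a range of 0.0209 to 0.235 over all alternatives.

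Stat3 (chr11:100885098-100939540), the transcription factor that carries the signal to the nucleus, was at 51.5, 53.8, 53.9 and 59.0 CPM in Control 1 to 4 and 68.2, 54.0, 47.5 and 66.6 CPM in Stress 1 to 4. Stress 1 and Stress 4 were above all controls, Stress 2 was level with them, and Stress 3 was below all of them. The log2 fold change was 0.12 (95% interval -0.15 to 0.39, adjusted p = 0.559). Stat3 shares 72 exon bases with Stat5a on the opposite strand.

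The other kinases and STATs gave no call in edgeR. Of the 11 genes tested, Jak2 and Stat3 included, 0 passed in either direction, against 10.4% of all tested genes higher and 3.69% lower. Before adjustment 1 was higher and 0 lower at p below 0.05, against 18.2% and 13%, and the median log2 fold change was 0.03. Jak1, the kinase on which gp130 signalling most depends, was at 264 ± 5.96 CPM in controls and 279 ± 14.3 CPM after stress (log2 fold change 0.08, 95% interval -0.20 to 0.36).

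Socs3 (chr11:117966079-117970047), the inhibitor that STAT3 itself induces, was at 19.5, 15.6, 14.4 and 18.0 CPM in Control 1 to 4. In Stress 1 to 4 it was at 25.4, 21.8, 18.9 and 29.1 CPM. The groups overlapped by 1 library, since Stress 3 lay under Control 1, and the other 3 stress libraries were above every control. The means were 16.9 ± 2.29 and 23.8 ± 4.43 CPM, with a log2 fold change of 0.51 (SE 0.14, 95% interval 0.20 to 0.81, adjusted p = 0.0322). Without any 1 library the log2 fold change stayed between 0.39 and 0.61. The adjusted p rose to 0.108 without Control 2, 0.103 without Control 3, 0.0627 without Stress 1 and 0.0684 without Stress 4, and fell to 0.0075 without Stress 3. Scaled by total counts alone, which put the median gene at -0.82, Socs3 was at -0.20, which is 0.62 relative to that median, and Il6st at -1.19, which is -0.36 relative to it.

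Of the 15 feedback inhibitors tested, 2 passed as higher, Socs3 and Ptpn1, and 0 as lower in edgeR, with 4 higher and 0 lower before adjustment at p below 0.05. Of all tested genes 10.4% passed as higher and 18.2% were higher before adjustment, so these counts are close to what all genes give. Ptpn1, a phosphatase of Janus kinases, rose from 69.8 ± 2.55 to 95.6 ± 11.1 CPM (log2 fold change 0.45, adjusted p = 0.0185), and its call was lost without Control 1, Control 2 or Control 3 (adjusted p up to 0.0720). Socs1 and Cish, inhibitors induced mainly by other STATs, had log2 fold changes of 0.77 and 0.64 with adjusted p-values of 0.0802 and 0.0828, and passed with DESeq2 (0.0443 and 0.0447), within ranges over the settings other than single libraries of 0.0370 to 0.807 and 0.0447 to 0.722. The median over the list was -0.04, close to that of all genes.

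A ratio of raw counts between genes of the same library does not depend on how libraries are scaled. It can move with exon length, by which the stress libraries also differed from the controls. The ratio of Il6st to Socs3 was 2.14, 2.31, 2.55 and 2.23 in Control 1 to 4 and 1.18, 1.31, 1.06 and 1.14 in Stress 1 to 4. No stress library came near the control range, and Stress 3, the lowest, lay close to Stress 4. The mean fell from 2.31 ± 0.175 to 1.17 ± 0.107, a log2 difference of -0.98, and stayed between -1.04 and -0.93 without any 1 library. For the receptor chains, Il6ra had about as many counts as Il6st in controls (ratio 0.995 ± 0.0780) and more after stress (1.38 ± 0.106), with all 4 stress libraries above all 4 controls. The ratio of Jak2 to Stat3 overlapped between the groups (1.00 ± 0.0809 and 1.16 ± 0.157). Of the 15 pairs among the 6 tested genes, 6 had groups that did not overlap, each with an exact permutation p of 0.0286, the smallest this design allows, and an adjusted p of 0.0714, so that 6 of the 15 were below 0.05 before adjustment and 0 after it. These ratios were formed after the gene values had been seen, and they were not corrected for exon length. Il6st was among the longest tested genes and Socs3 among shorter ones. In the fit with an offset for exon length, the log2 fold changes were -0.33 for Il6st and 0.44 for Socs3.

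**Figure D2:**
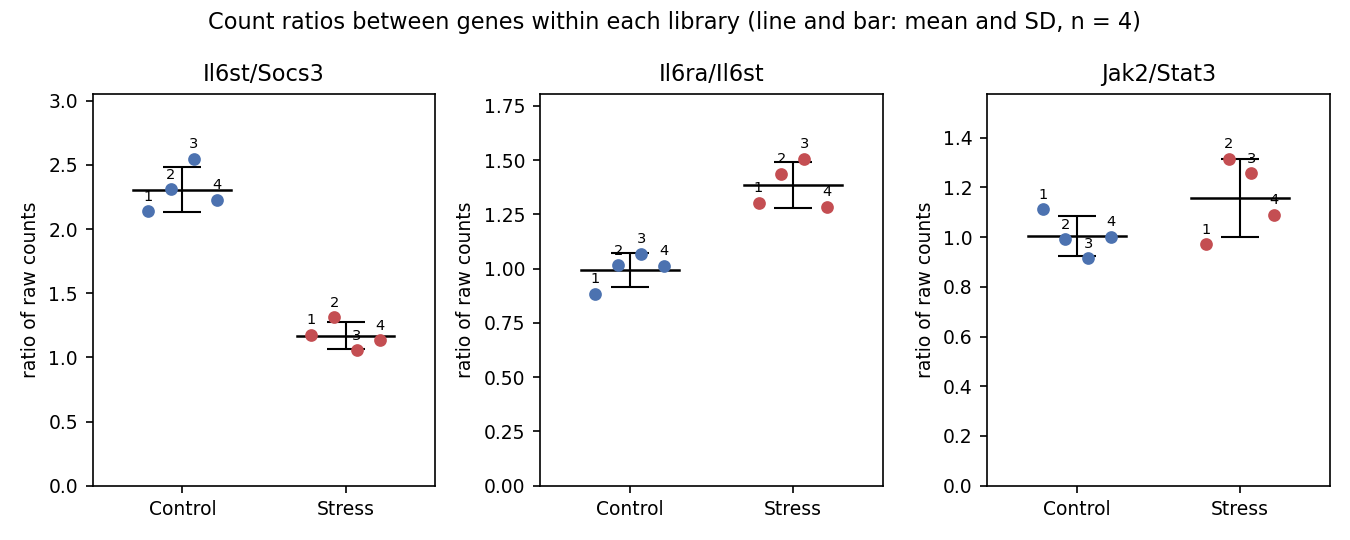
Ratio of raw counts between axis genes within each library, for Il6st over Socs3, Il6ra over Il6st and Jak2 over Stat3; points are libraries with their replicate number, and lines and bars are the mean and SD (n = 4). The Il6st to Socs3 ratio drops from 2.31 to 1.17 on average, with no overlap between the groups. The ratios are not corrected for exon length.

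Levels of different genes were compared per kilobase of annotated exon. In controls Jak2 was the highest at 10.9 ± 0.864 CPM per kb. Socs3 and Stat3 followed at 5.84 ± 0.794 and 5.73 ± 0.333 CPM per kb, and did not differ beyond their spread. Il6ra, Il6st and Osm came next, at 4.44 ± 0.223, 3.48 ± 0.243 and 0.861 ± 0.112 CPM per kb. After stress the order was the same, with Jak2 at 13.4 ± 1.15, Socs3 at 8.24 ± 1.53, Stat3 at 6.20 ± 1.05, Il6ra at 4.42 ± 0.648, Il6st at 2.51 ± 0.505 and Osm at 1.02 ± 0.270 CPM per kb. There Socs3 was above Stat3 in each of the 4 libraries. The order in the middle depends on the transcript model: per kilobase of the longest transcript, Stat3 came second at 9.03 in controls and 9.78 after stress, ahead of Socs3 at 6.62 and 9.33, and in controls Il6st and Il6ra were level at 4.46 and 4.44.

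Beside the kinase and STAT3 route, gp130 feeds a branch through the phosphatase SHP2, encoded by Ptpn11, and the adaptors Gab1 and Gab2 to ERK. Of the 13 genes of this branch, 5 passed as higher and 0 as lower in edgeR, where 10.4% and 3.69% of all tested genes did. Before adjustment 5 were higher and 1 lower at p below 0.05, against 18.2% and 13% of all genes, and the median log2 fold change was 0.14. Ptpn11 was at 94.8, 77.6, 67.8 and 91.8 CPM in Control 1 to 4 and 142, 138, 113 and 124 CPM in Stress 1 to 4. All stress libraries were above all controls (log2 fold change 0.64, adjusted p = 0.00843). Gab1 rose from 2.54 ± 0.595 to 5.19 ± 1.98 CPM (log2 fold change 1.06, adjusted p = 0.0162), and Gab2 from 5.86 ± 1.69 to 11.2 ± 3.10 CPM (log2 fold change 0.96, adjusted p = 0.0198). The kinases Map2k2 and Mapk3 rose by log2 fold changes of 0.56 and 0.51 (adjusted p = 0.0401 and 0.0200). The call of Ptpn11 held without any 1 library. Gab1 lost it without Control 2 or Control 3, Gab2 without Control 2, Mapk3 without Control 2, Control 3 or Stress 1, and Map2k2 without any 1 library other than Control 4 or Stress 4, with adjusted p-values of up to 0.0638, 0.0568, 0.0822 and 0.122. Without Control 3 and Stress 3 together, Mapk3 (0.0734) and Map2k2 (0.170) did not pass either. Map2k2 also failed with the replicate number as a block (0.0977).

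Known STAT3 target genes held the largest differences of the pathway. Of 27 listed genes, 24 were tested, and 12 of them passed as higher and 0 as lower in edgeR, against 10.4% and 3.69% of all tested genes, with 14 and 0 before adjustment at p below 0.05, against 18.2% and 13%. The median log2 fold change was 0.68, against -0.02 over all genes, and in 13 of the 24 every stress library lay above every control library, against 11.1% of all genes. Without Socs3 and Stat3, 11 of 22 passed and the median was 0.70. This list, like the other pathway lists, was chosen with earlier results of these data known. Its share of passing genes is a description only, and STAT3 activity was not tested. By the thresholds of the study 6 were called higher in edgeR, against 1.69% of all genes: Lrg1, Lcn2, Hp, Nfil3, Cebpd and Il1rn. With DESeq2, the tool of the study, Vegfa (log2 fold change 1.35, adjusted p = 0.00171) and Bcl2l1 (1.25, 0.000132) also met these thresholds. DESeq2 called 2.83% of all genes higher. Saa3, Timp1 and Il10 were below the count filter, with at most 8 counts in a library.

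Lrg1, a secreted glycoprotein stored in neutrophil granules, was at 5.41, 4.35, 3.32 and 6.12 CPM in Control 1 to 4 and 21.4, 13.4, 21.2 and 33.8 CPM in Stress 1 to 4. The lowest stress library was above the highest control library by more than the whole control range (log2 fold change 2.25, 95% interval 1.68 to 2.82, adjusted p = 0.0009). Lcn2, the iron-scavenging lipocalin of neutrophil granules, was at 5.19, 4.68, 3.18 and 5.83 CPM in Control 1 to 4 and 19.9, 11.8, 23.7 and 26.1 CPM in Stress 1 to 4, again without overlap (log2 fold change 2.12, 95% interval 1.59 to 2.66, adjusted p = 0.000894). Cebpd, a transcription factor of the acute-phase response, was at 5.92, 4.43, 4.02 and 7.13 CPM in Control 1 to 4 and 12.8, 13.3, 13.8 and 17.4 CPM in Stress 1 to 4. Its stress libraries lay close together (log2 fold change 1.43, 95% interval 1.05 to 1.82, adjusted p = 0.000894).

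Among the remaining targets that passed, Hp, which encodes haptoglobin, rose by a log2 fold change of 1.59, Nfil3 by 1.56 and Il1rn, the interleukin-1 receptor antagonist, by 1.26 (0.99 without Stress 4, its highest library). Cebpb, Vegfa and Bcl2l1 had larger errors relative to their log2 fold changes of 1.60, 1.33 and 1.24, with adjusted p-values of 0.0331, 0.0248 and 0.0110. Cebpb rested in large part on Stress 1, at 23.7 CPM against 8.86, 8.12 and 5.95 CPM in Stress 2 to 4, and its log2 fold change was 1.00 without that library. The immediate early gene Junb and the kinase gene Pim1 rose by 0.72 and 0.68. The calls of Lrg1, Lcn2, Cebpd, Hp, Nfil3, Il1rn and Junb at an adjusted p below 0.05 held without any 1 library. Bcl2l1 lost it without Stress 3 (0.0737), Pim1 without Control 2 (0.0604), Vegfa without Control 1, Control 2, Control 3 or Stress 4 (up to 0.0669), and Cebpb without Control 2, Control 3, Stress 1, Stress 2 or Stress 3 (up to 0.127). With no count filter Bcl2l1 (0.0527) and Cebpb (0.156) did not pass, nor did Cebpb with an offset for exon length (0.128), or Vegfa (0.0520) and Cebpb (0.222) without Control 3 and Stress 3 together. Nor did Bcl2l1 (0.0893), Cebpb (0.0814) or Vegfa (0.0733) pass with the replicate number as a block. Scaled by total counts alone, of the genes named here that passed as higher only Lrg1, Lcn2, Hp and Cebpb still passed.

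The promoter motif was also compared within the pathway. Of 29 RefSeq promoters of 22 STAT3 target genes, 4 held TTCNNNGAA in the 250 bases before the start (13.8%, against 7.02% of all RefSeq promoters and 6.19% of those of tested genes): both of those found for Bcl6, which between them have 4 matches, and those of Icam1 and Socs3. Bcl6, a transcriptional repressor of lymphocytes, and Icam1, an adhesion molecule, had log2 fold changes of 0.02 (95% interval -0.24 to 0.28) and 0.01 (95% interval -0.23 to 0.26), whereas Socs3 passed. Elsewhere in the lists, Gab1, which rose, Il31ra, which fell, and Zfp36, with a log2 fold change of 0.17 and an adjusted p of 0.258, each held 1 match. These letters were not in this window for Lrg1 or Lcn2, which says nothing of the factor itself, and no promoter of Cebpd was searched. The sites, on the strand of the gene with the motif in capitals, show how the middle bases differ among genes. They lie at chr16:23981431-23981463, chr16:23981385-23981417, chr16:23981351-23981383 and chr16:23988950-23988982 (Bcl6, minus), chr9:21015886-21015918 (Icam1, plus), chr11:117969500-117969532 (Socs3, minus), chr8:80880480-80880503 (Gab1, minus), chr13:112580833-112580865 (Il31ra, minus) and chr7:28379229-28379257 (Zfp36, minus).
Bcl6 site 1: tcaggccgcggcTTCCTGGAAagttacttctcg
Bcl6 site 2: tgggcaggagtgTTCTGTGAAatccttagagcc
Bcl6 site 3: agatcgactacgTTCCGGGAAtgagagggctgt
Bcl6 site 4: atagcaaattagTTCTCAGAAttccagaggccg
Icam1: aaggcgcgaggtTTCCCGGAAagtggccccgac
Socs3: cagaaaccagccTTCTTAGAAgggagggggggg
Gab1: ctccggaggagtTTCAGAGAAagt
Il31ra: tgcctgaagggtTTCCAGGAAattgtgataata
Zfp36: ccacagcctgacTTCTGCGAAccgacagt

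Over all 94 listed pathway genes other than the 7, 81 were tested, of which 18 passed as higher and 3 as lower, against 10.4% and 3.69% of all tested genes, and the median log2 fold change was 0.10. Of the 18, 11 were STAT3 targets and 5 belonged to the SHP2 and ERK branch. Of the 7 genes that act on the stability of Il6 mRNA, Zfp36 among them, 0 passed in edgeR, 0 were higher and 1 was lower before adjustment at p below 0.05, against 18.2% and 13% of all genes, and the median was -0.11.

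**Figure D3:**
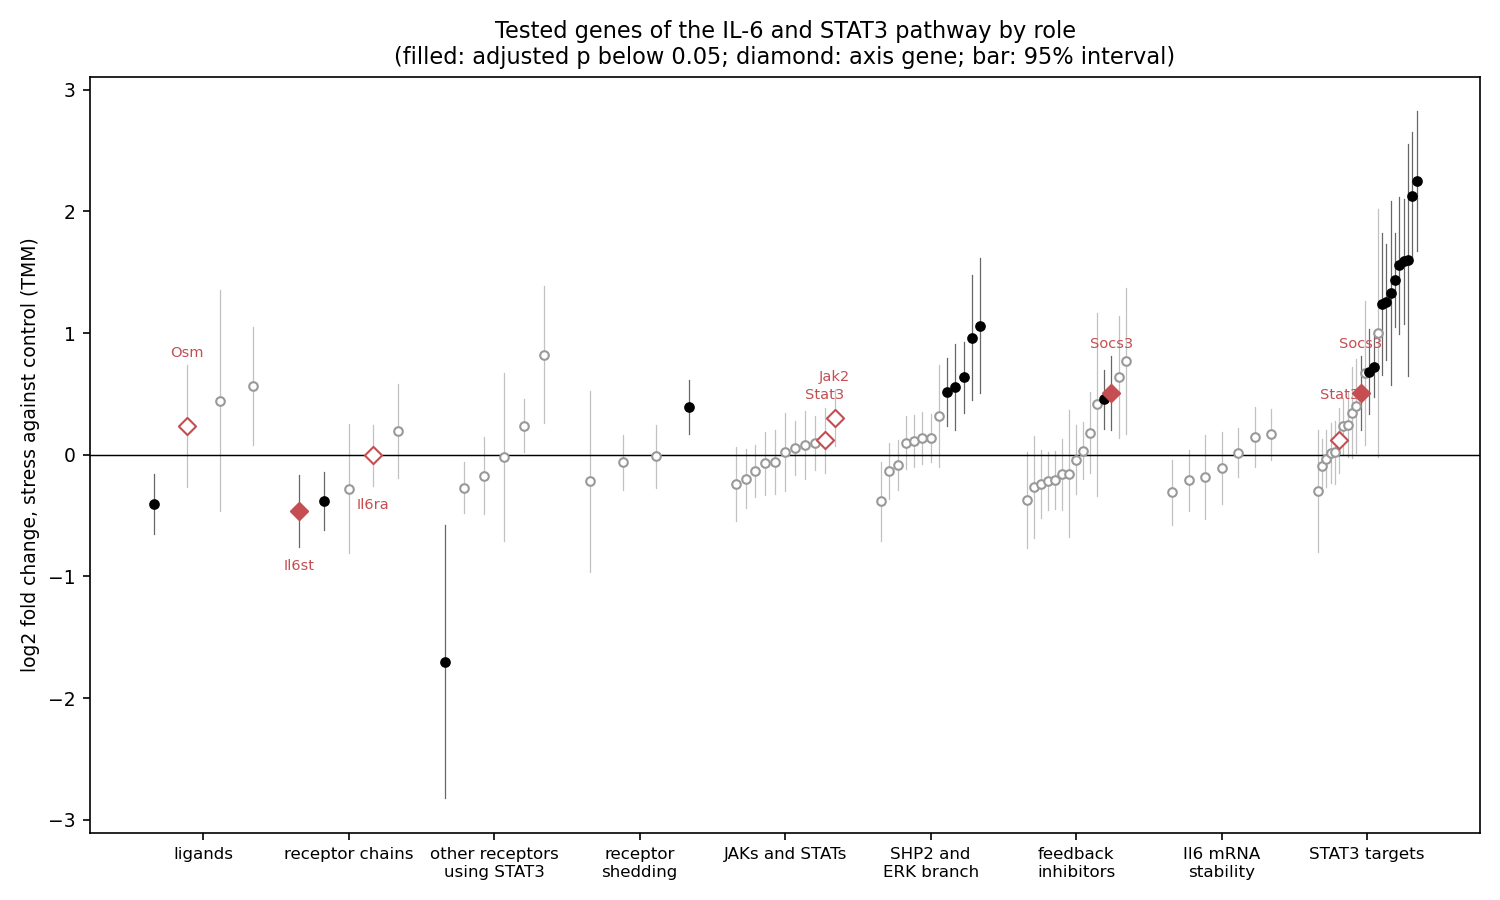
Log2 fold change of each tested pathway gene, stress against control, grouped by role, with its 95% interval; filled symbols have an adjusted p below 0.05 and diamonds are the axis genes (Socs3 and Stat3 stand in 2 groups). The STAT3 targets reach a log2 fold change of 2.25, while the kinases and STATs lie between -0.24 and 0.30.

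Marker genes of blood cell types moved in the same libraries. Their sums are relative to the typical gene of these libraries and do not count cells. By flow cytometry after the same restraint, the paper reported more neutrophils in blood, and fewer monocytes, T cells, B cells and NK cells. The counts of markers that passed stand against 10.4% of all tested genes passing as higher and 3.69% as lower. The summed level of 9 neutrophil markers, led by S100a9, was 181, 170, 118 and 222 CPM in Control 1 to 4 and 399, 384, 468 and 547 CPM in Stress 1 to 4, a ratio of means of 2.60, and 7 of the 8 tested markers passed as higher. The 7 classical monocyte markers, led by F13a1, summed to 122, 104, 132 and 124 CPM in controls and 403, 208, 284 and 428 CPM after stress, a ratio of 2.75, and 6 of 7 passed as higher. F13a1 alone was at 48.3 ± 9.17 CPM in controls and 116 ± 9.29 CPM after stress. Ms4a4c, the marker that did not pass, had a log2 fold change of -0.10. Neutrophils and monocytes are known to carry Lrg1, Lcn2, Hp, Il1rn, Csf3r and Socs3 transcripts, and the part of these cells in the differences above was not tested.

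The 6 B cell markers, led by Cd79a, summed to 846, 1028, 1035 and 872 CPM in Control 1 to 4 and 739, 582, 756 and 779 CPM in Stress 1 to 4. All stress libraries were below all controls, with a ratio of means of 0.755, and 3 of the 6 markers passed as lower. The 10 T cell markers, led by Tcf7, had a ratio of 0.952, with 648 ± 17.6 CPM in controls and 617 ± 56.9 CPM after stress, and 0 of 10 passed in edgeR, nor was any below 0.05 before adjustment. Lymphocytes are known to carry Il6st, Il6ra and Il27ra, and their part in the fall of Il6st and Il27ra was not tested. The 6 NK cell markers, led by Gzma, had a ratio of 0.964, with Stress 3 far above the other stress libraries, and 0 of 6 passed in edgeR, with 1 lower before adjustment at p below 0.05. The 6 non-classical monocyte markers, led by Spn, had a ratio of 0.789, with Stress 1 far above the other stress libraries, and 2 of 6 passed as lower. In controls Spn alone was at 82.5 CPM of a mean sum of 147 CPM, and it did not pass. Of the 6 markers, 5 were lower and 1 was higher, Cx3cr1 (log2 fold change 0.34).

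The 6 platelet markers, led by Ppbp, summed to 1636, 1164, 1121 and 1687 CPM in controls and 2494, 2865, 3246 and 2523 CPM after stress, a ratio of means of 1.98, and 6 of 6 passed as higher. The 7 red cell markers, led by Hbb-bs, had a ratio of means of 2.08, and 1 of 7 passed as higher. The 5 endothelial markers summed to 22.3 ± 4.38 and 46.7 ± 6.62 CPM, led by Esam, which platelets also carry. Of the 3 that were tested, 2 passed as higher, Esam among them. The part of platelets and red cells in the differences above was not tested either. The liver markers, from the main site of the interleukin-6 acute-phase response, summed to at most 0.278 CPM in any library, with Apoa2 the most abundant and Serpina1c at 0 in all. Each marker of leukocytes, platelets and red cells had counts in at least 1 library.

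**Figure D4:**
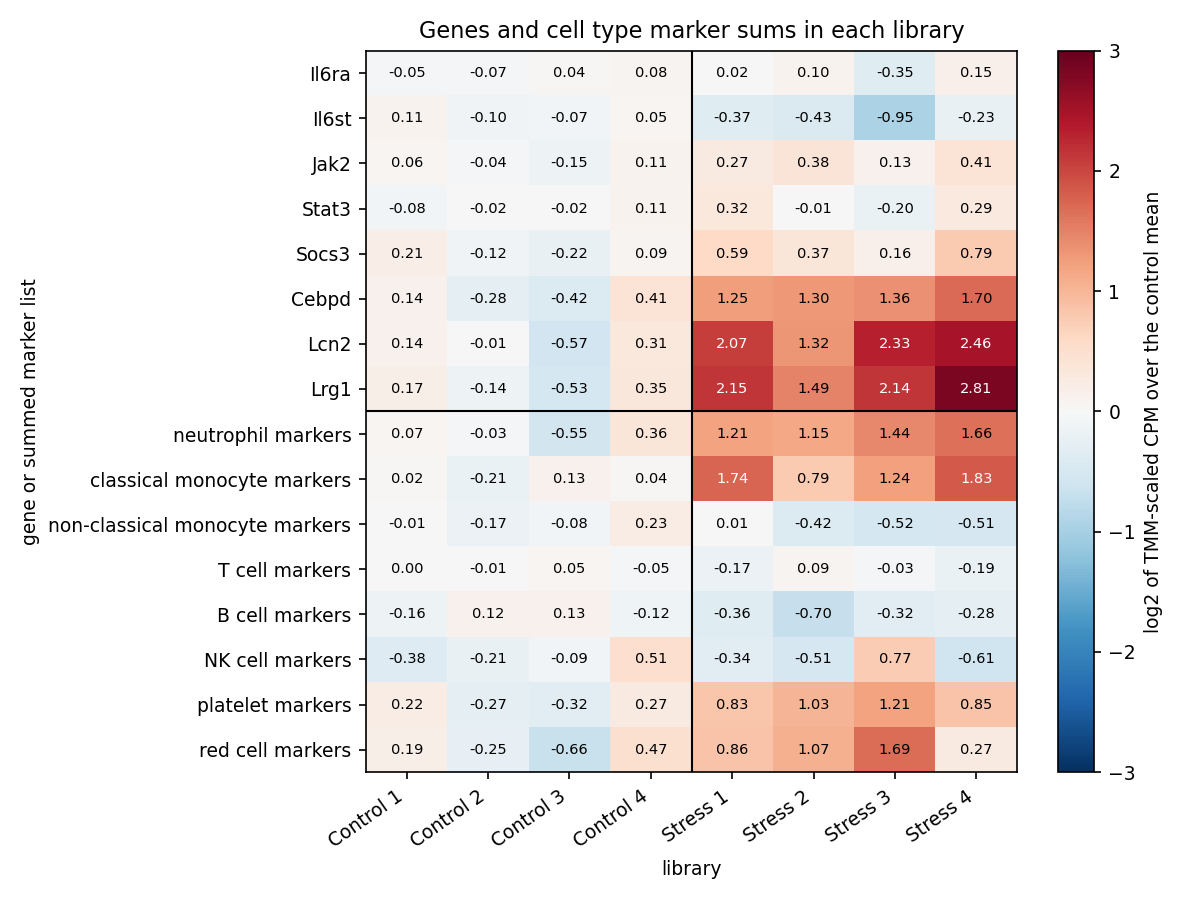
Log2 of the TMM-scaled CPM over the control mean for axis genes, 3 STAT3 targets and summed marker lists in each library, with the value in each cell. Neutrophil and classical monocyte sums and the STAT3 targets are high in all 4 stress libraries, B cell sums and Il6st are low in all 4, and T cell sums stay near 0.

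The stress libraries also differed from the controls by gene length. Against the control mean, with the tested genes split into 5 equal groups by exon length, the median log2 level of the longest group minus that of the shortest was 0.03, 0.03, -0.01 and -0.07 in Control 1 to 4 and -0.20, -0.25, -0.78 and -0.11 in Stress 1 to 4. Stress 3 stood apart from the others. Il6ra, Il6st and Stat3 fell in the longest group, whose median log2 fold change was -0.16, Jak2 in the third, Socs3 in the second, with a median of 0.03, and Osm in the shortest, with 0.15. In a fit with an offset for exon length, added after the data had been seen, Il6st stayed lower (log2 fold change -0.33, adjusted p = 0.0382), Jak2 passed as higher (0.33, adjusted p = 0.0341) and Socs3 no longer passed (0.44, adjusted p = 0.0798). Over the other settings that kept all 8 libraries, the adjusted p of Il6st was between 0.0101 and 0.0417, and that of Socs3 between 0.0154 and 0.0353 apart from total counts alone (0.623).

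**Figure D5:**
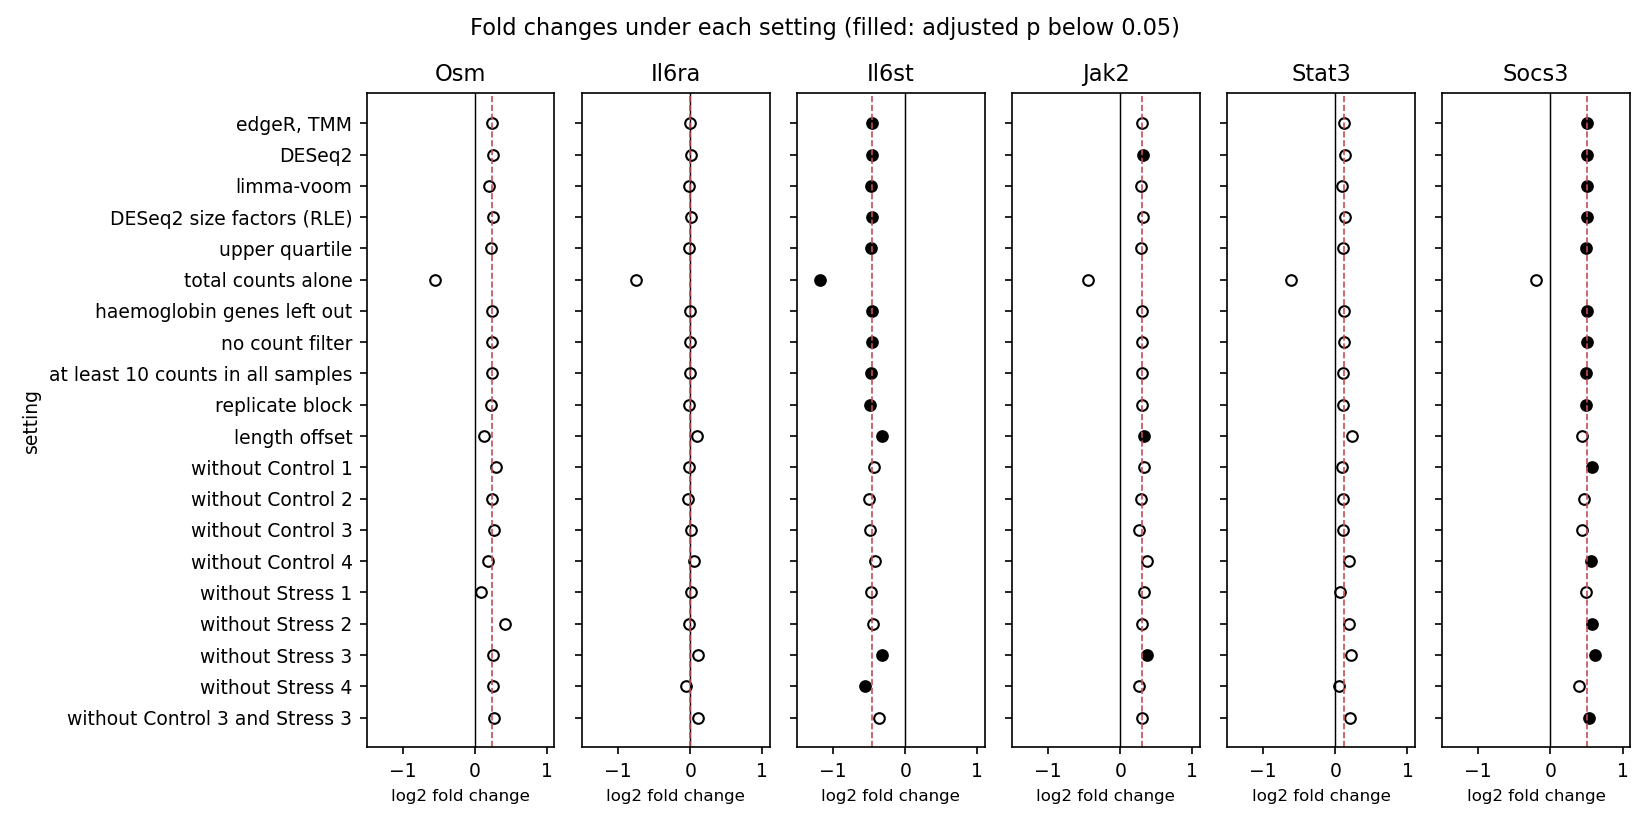
Log2 fold change of each tested axis gene (horizontal axis) under each setting (vertical axis), filled where the adjusted p was below 0.05; the dashed line is the value with edgeR and TMM. Il6st is negative in every setting, and Socs3 is positive in every setting but total counts alone, where it is -0.20.

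Over the 8 libraries, the deviations of log2 CPM from the group means had a Pearson r from 0.50 (Jak2 and Stat3) to 0.89 (Il6ra and Il6st) between pairs of the tested axis genes other than Osm, and of -0.41 to 0.26 between Osm and the others. All genes share the same libraries and their length skew, so these are descriptions only. The gene with the highest r was Lyrm7 for Il6ra (0.99), Gpr19 for Il6st (0.99), Ulk1 for Jak2 (0.99), Jmjd7 for Stat3 (0.99), Pstpip2 for Socs3 (0.98) and Lyl1 for Osm (0.98). The next in order were Ankfy1 for Il6ra, Pag1 for Il6st, Rbbp8 for Jak2, Elmo1 for Stat3, Klf7 for Socs3 and Arhgap24 for Osm. Each was picked as highest among all tested genes over only 8 libraries, a selection that gives high values of r by itself. The adjusted p-values of these 12 genes ran from 0.0789 to 0.795.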

How the data were processed

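Gene counts in the deposited table were whole numbers per symbol, which the authors made, by the submitters' processing notes, with HISAT2 and featureCounts on mm10. Versions, annotation and strand setting are not given in the sources used here. Columns were matched to the control and stress libraries by name. The 11718 of 21878 genes that reached 10 counts in 4 or more libraries were fitted with edgeR 4.0.16 (TMM, robust quasi-likelihood test, Benjamini-Hochberg adjustment over all tested genes) in R 4.3.3. CPM were scaled by TMM-adjusted library sizes. The fit was tested on simulated data. Alternatives were DESeq2 1.42.0, limma-voom 3.58.1, other scalings, filters, the replicate number as a block, and leaving out each library. Exact two-sided permutation tests of the count ratios used scipy 1.17.1 in Python 3.11.15, with numpy 2.4.6, and plots used matplotlib 3.10.9. No pair of libraries of the same group agreed within sampling noise (chi-square per degree of freedom from 18.5 to 204). Coordinates and exon lengths came from GENCODE M21 (GRCm38), with lengths for 96.8% of tested genes. Promoters came from RefSeq. The intervals of log2 fold changes come from the edgeR fit and include the spread between libraries, while the binomial intervals and floors of Il6 cover counting error only.

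The 7 genes and the gene lists were chosen with earlier results of these data known. Named genes were the 7, up to 3 passing genes in each direction of each pathway list with the smallest p, listed genes under the filter, the 3 genes most alike each tested gene over the 8 libraries, and the most abundant gene of each marker list. Csf3r, Ebi3, Adam17, Jak1, Socs1, Cish, Map2k2, Mapk3, Junb, Il1rn, Nfil3, Hp, Bcl2l1, Cebpb, Pim1, Vegfa, Bcl6, Icam1 and Zfp36 were added after their values were seen, as were the length offset, the fit without Control 3 and Stress 3, the count ratios and the paired reading of Il6 counts.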

Additional observations from a re-analysis of the deposited data

Results flagged for a closer look

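In 6 of the 94 groups of 4 libraries examined, from 37 named genes and 10 marker sums, 1 library lay far from the other 3 by the rule of the gap over the range. Chance gives about 1 in 20 such flags where values vary freely, so that about this many are expected. Il6 was flagged in both groups, with 0.222 CPM in Control 4 and 0.0704 CPM in Stress 4, from 7 and 2 counts, against 0 in each of the other libraries. The chance rate does not apply to these, since with 0 in the other 3 libraries any count in the last one is flagged.

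The other 4 flags were in the stress group, each the highest library: Cebpb at 23.7 CPM in Stress 1, against a group median of 8.49, Il1rn at 12.6 CPM in Stress 4, against 7.42, the non-classical monocyte marker sum at 147 CPM in Stress 1, against 106, and the NK cell marker sum at 107 CPM in Stress 3, against 47.0. Their gaps over the range were from 0.832 to 0.872, where the critical value is 0.829.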

How the results depend on the processing

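Il6st was lower in every setting and the axis genes called by the thresholds of the study numbered 0 in each. Of the 23 named genes that passed, 8 passed without any 1 library and 15 lost the call without some library.

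With DESeq2, 332 genes were called higher and 12 lower, 655 passed as lower, and 2 axis genes passed as higher. Scaled by total counts alone, which shifted the median gene by -0.82, 14 genes were called higher and 729 lower, 52 passed as higher and 5811 as lower, 0 axis genes passed as higher, and 4 other pathway genes passed as higher and 34 as lower. The upper quartile and the absence of a count filter each gave 4 genes called lower, and the length offset gave 1. Without Control 3 and Stress 3 together, 100 genes were called higher, 165 passed as lower, and 0 axis genes and 0 other pathway genes passed as lower. The smaller samples and, for total counts, the shifted median enter these counts by construction; for the others the cause was not tested.

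Without 1 library at a time, genes called higher ranged from 76 to 338 and called lower from 1 to 8, genes passing as higher from 618 to 1421 and as lower from 77 to 717, axis genes passing as higher from 0 to 2 and as lower from 0 to 1, and other pathway genes passing as higher from 9 to 20 and as lower from 0 to 5. The Il6 difference in CPM (-0.0379) ranged from -0.0564 to 0.0176, being above 0 without Control 4.

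Under total counts alone these log2 fold changes changed sign: Osm -0.56, Jak2 -0.44, Stat3 -0.62, Socs3 -0.20, Adam10 -0.38, Ptpn1 -0.31, Ptpn11 -0.10, Junb -0.032, Pim1 -0.089, Mapk3 -0.29, Map2k2 -0.24, Jak1 -0.70, Bcl6 -0.72, Icam1 -0.77, Zfp36 -0.61, Ebi3 -0.15, Socs1 -0.11 and Cish -0.17. Il6ra, near 0, was 0.0076 with DESeq2, 0.0060 with its size factors, 0.094 with the length offset, 0.10 without Control 3 and Stress 3, and -0.060 to 0.11 without 1 library. Adam17 was 0.017 with the length offset, 0.035 without both of these libraries and -0.12 to 0.00062 without 1. With total counts alone, where the median gene was at -0.82, Il6ra was -0.75 (edgeR adjusted p = 0.0541). Adam17 was -0.84 there and passed as lower (adjusted p = 0.0367). Without 1 library, Bcl6 ran from -0.097 to 0.10 and Icam1 from -0.037 to 0.087.

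The replicate numbers did not pair the libraries: the deviations of libraries with the same number had correlations of 0.06, 0.00, -0.04 and -0.16, and 2 of 8 libraries were most like the other group's library of their own number. With the replicate number as a block, 189 genes were called higher and 1 lower, 920 passed as higher and 240 as lower, 1 axis gene passed each way, and 15 other pathway genes passed as higher and 0 as lower. Fewer counts outside haemoglobin in Stress 3 limit the precision of low genes there.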
